A study of Mus musculus with 30 samples.

Results

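The RNA of 4 galectins and of the galectin-binding protein Lgals3bp was followed through 30 mouse libraries of host cells from bone, lung and brain. The 5 genes (Lgals1, Lgals3, Lgals3bp, Lgals8 and Lgals9) were matched by symbol to 5 of the 43346 gene IDs in the count table. They were chosen by family name with earlier results of these data known, above all the small p of Lgals9 in exposed against control brain, so the exposed and control values of brain count as values that chose them. These values are therefore a description and support nothing further. A further 6 members of the family are in the table (Lgals2, Lgals4, Lgals7, Lgals12, Lgalsl and Grifin) and were not on the list.

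Every exposed library came from female NSG mice of 6 to 8 weeks, an immunodeficient strain that lacks mature lymphocytes and natural killer cells and keeps neutrophils, monocytes and macrophages. The mice carried estrogen pellets and received 100000 human breast circulating tumour cells (CTCs), marked with GFP and luciferase, in the left cardiac ventricle. After dissociation of the lesions, 50000 cells without GFP were sorted for RNA. Bone held 13 exposed libraries, of which 2 were beside Brx07 tumours (1 from leg and 1 from skull, with the same code in their titles and thus possibly from 1 mouse), 4 beside Brx50 and 7 beside Brx68, and 3 controls. Lung held 7 exposed libraries (2 Brx07, 1 Brx42, 3 Brx50, 1 Brx68) and 2 controls. Brain held 3 exposed libraries, all Brx50, and 2 controls. Controls came from tumour-free mice. The labels repeat the same protocol for them and do not say whether they carried pellets. Each CTC line was grown from the blood of a breast cancer patient. The gate took any mouse cell without GFP, so tissue cells, blood cells and fibroblasts could all enter a library.

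Galectins are lectins that bind beta-galactosides on glycoproteins through a conserved carbohydrate recognition domain. They are made in the cytosol, leave the cell without a signal peptide, and cross-link glycoproteins at the cell surface. Galectin-1, the product of Lgals1, forms dimers and is abundant in fibroblasts and other mesenchymal cells. Galectin-3, the product of Lgals3, joins its lectin domain to a tail through which it oligomerises, and is a classic macrophage protein (Mac-2) that is induced in reactive microglia. Galectin-8 and galectin-9 carry tandem lectin domains. Galectin-8 marks damaged vesicles for autophagy, and galectin-9 is a ligand of the checkpoint receptor Tim-3, encoded by Havcr2. Lgals3bp encodes a secreted scavenger-receptor glycoprotein that galectins bind, and it is known as an interferon-responsive gene.

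In the GRCm38 coordinates of GENCODE M21, Lgals1 (ENSMUSG00000068220) lies on the plus strand of chromosome 15 from 78926725 to 78930465. Lgals3 (ENSMUSG00000050335) lies on the plus strand of chromosome 14 from 47367751 to 47386160, and Lgals3bp (ENSMUSG00000033880) on the minus strand of chromosome 11 from 118392751 to 118402092. Lgals8 (ENSMUSG00000057554) lies on the minus strand of chromosome 13 from 12439415 to 12464944, and Lgals9 (ENSMUSG00000001123) on the minus strand of chromosome 11 from 78962974 to 78984946. Lgals8 overlaps Heatr1 on the opposite strand, which held 16838 counts over all libraries against 15647 for Lgals8. The overlap is one of whole gene spans, and shared exons were not looked for. The strand setting of the counting is not given either, so any effect of the overlap on these counts is not known. The lowest count of a galectin in any library was 14, for Lgals3, and the lowest of Lgals8 was 152. Both processed copies in the table, Lgals1-ps1 and Lgals1-ps2, had 0 counts.

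RefSeq promoter windows of GRCm38.p6, from 250 bases before to 50 bases after the gene start, were at hand for Lgals3, Lgals3bp, Lgals8 and Lgals9. They were searched on both strands for the core of the interferon-stimulated response element, GAAA-NN-GAAA, and for the STAT site TTCNNNGAA. The Lgals9 window, chr11:78984875-78985174 on the minus strand, is shown because it held the response element core at 2 places. The capitals mark both matches, which read as the core on the opposite strand and start at -55 and at 15 with the RefSeq start counted as 0.

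Lgals9 promoter: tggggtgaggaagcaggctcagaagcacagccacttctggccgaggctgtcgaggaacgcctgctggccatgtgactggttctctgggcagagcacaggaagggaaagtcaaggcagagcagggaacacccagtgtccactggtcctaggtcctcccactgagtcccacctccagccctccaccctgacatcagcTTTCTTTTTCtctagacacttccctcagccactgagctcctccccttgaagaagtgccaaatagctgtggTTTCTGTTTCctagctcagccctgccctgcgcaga

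The windows of Lgals3, Lgals3bp and Lgals8 held neither string, and the Lgals9 window held no STAT string. The windows of Lgals3 (chr14:47373610-47373909) and Lgals8 (chr13:12461689-12461988) lie inside the GENCODE gene spans given above. Other starts of these genes were not searched. Of all 32851 promoter windows, 3.44% held the response element core and 8.3% the STAT string. Among 20 interferon-responsive genes the shares were 40% and 30%. A match is a description of these letters, not a site.

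Total counts ran from 4289012 to 15646947 per library. Markers of lung epithelium, summed, were higher in each lung library (196 CPM or more) than in any other (at most 174), CPM being counts scaled to a library total of 1000000. Summed neuron markers stood at 752 CPM or more in every brain library and at most 380 elsewhere. Neutrophil markers, abundant in marrow, spanned 40.7 to 57293 CPM over the exposed bone libraries and 32791 to 42885 over bone controls, so some exposed bone libraries held almost none of them. Genes detected ran from 16344 to 23074 in exposed brain against 23736 to 24146 in its controls, and from 14769 to 25688 in exposed bone against 22875 to 22917. The labels do not tie each library to its own mouse. The p-values therefore reflect only how much these libraries varied, which may be partly technical variation.

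In tumour-free tissue the galectins separated brain from the other tissues. Lgals3 stood at 220, 233 and 239 CPM in bone, 261 and 393 in lung, and 2.23 and 5.33 in brain. Lgals1 stood at 98.4, 106 and 108 CPM in bone, 55.2 and 60.8 in lung, and 3.35 and 6.13 in brain. For both genes every brain control lay far below every control of bone and lung, Lgals1 was highest in bone and Lgals3 in lung, and no tissues overlapped.

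Lgals9 stood at 82.0, 89.9 and 92.1 CPM in bone, 100.3 and 129 in lung, and 8.29 and 9.46 in brain. Lgals3bp stood at 86.4, 92.8 and 96.9 CPM in bone, 207 and 223 in lung, and 14.7 and 25.3 in brain. Both had the order lung, bone, brain with no overlap. Lgals8 stood at 43.6, 44.9 and 46.1 CPM in bone, 66.7 and 70.5 in lung, and 34.9 and 40.6 in brain. It kept the same order over a far smaller range.

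Tested with edgeR's quasi-likelihood F-test and Benjamini-Hochberg adjustment over 18859 genes, 5 of 5 genes were higher in tumour-free lung than in brain, where 72% of all genes passed and 34.6% passed as higher. The log2 differences were 6.57 (SE 0.32) for Lgals3, 3.86 (SE 0.17) for Lgals9, 3.76 (SE 0.21) for Lgals1, 3.59 (SE 0.20) for Lgals3bp and 1.03 (SE 0.13) for Lgals8. Lgals8 had the largest edgeR adjusted p of the 5, 1.43e-05. In bone against brain 5 of 5 were again higher, beside 75.8% of genes passing and 37% passing as higher. There the log2 difference was 6.03 (SE 0.31) for Lgals3, 4.57 (SE 0.21) for Lgals1, 3.45 (SE 0.17) for Lgals9, 2.33 (SE 0.19) for Lgals3bp and 0.39 (SE 0.12) for Lgals8. These comparisons share their brain controls, which are among the values known when the list was made. Nothing is therefore read from the 2 counts of 5 of 5, and the differences from brain are a description. The Lgals8 call in bone against brain (edgeR adjusted p = 0.0113) ended without brain control 1 (0.0909), with DESeq2 (0.0541) and in a fit of all 30 libraries (0.336), and the other calls of both comparisons held in that fit.

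Between tumour-free bone and lung, 4 of 5 genes passed, beside 44.8% of all genes (22.5% higher and 22.3% lower in bone). Lgals1 was higher in bone (log2 difference 0.81, SE 0.15, edgeR adjusted p = 6.13e-04). Lgals3bp (-1.25, SE 0.15), Lgals8 (-0.64, SE 0.11) and Lgals9 (-0.41, SE 0.13) were lower in bone, with edgeR adjusted p of 3.22e-05, 5.33e-04 and 0.0174. Lgals3 did not pass (-0.53, SE 0.20, adjusted p = 0.0511), but did with RLE scaling (0.0437), DESeq2 (0.0180) and limma-voom (0.0259), and without lung control 2 (0.0103) or either brain control (0.0264 and 0.0263). Without lung control 1 its difference was -0.18 (adjusted p = 0.569), and with the replicate number as a block it was -0.48 (0.166). The Lgals9 call ended without bone control 1 (adjusted p = 0.0511) or lung control 2 (0.263), and 0 of the 5 passed in the fit of all 30 libraries, in which 93 genes passed in all. Fibroblast markers stood beside Lgals1, at 12088 to 22180.4 summed CPM in bone controls against 2186.5 to 2613 in lung controls. Monocyte and macrophage markers stood beside the others, at 5713 to 6621 CPM in bone against 7638 to 9848 in lung. Their part in these differences was not tested. In bulk libraries fewer cells of a type and less RNA per cell cannot be told apart.

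**Figure D1:**
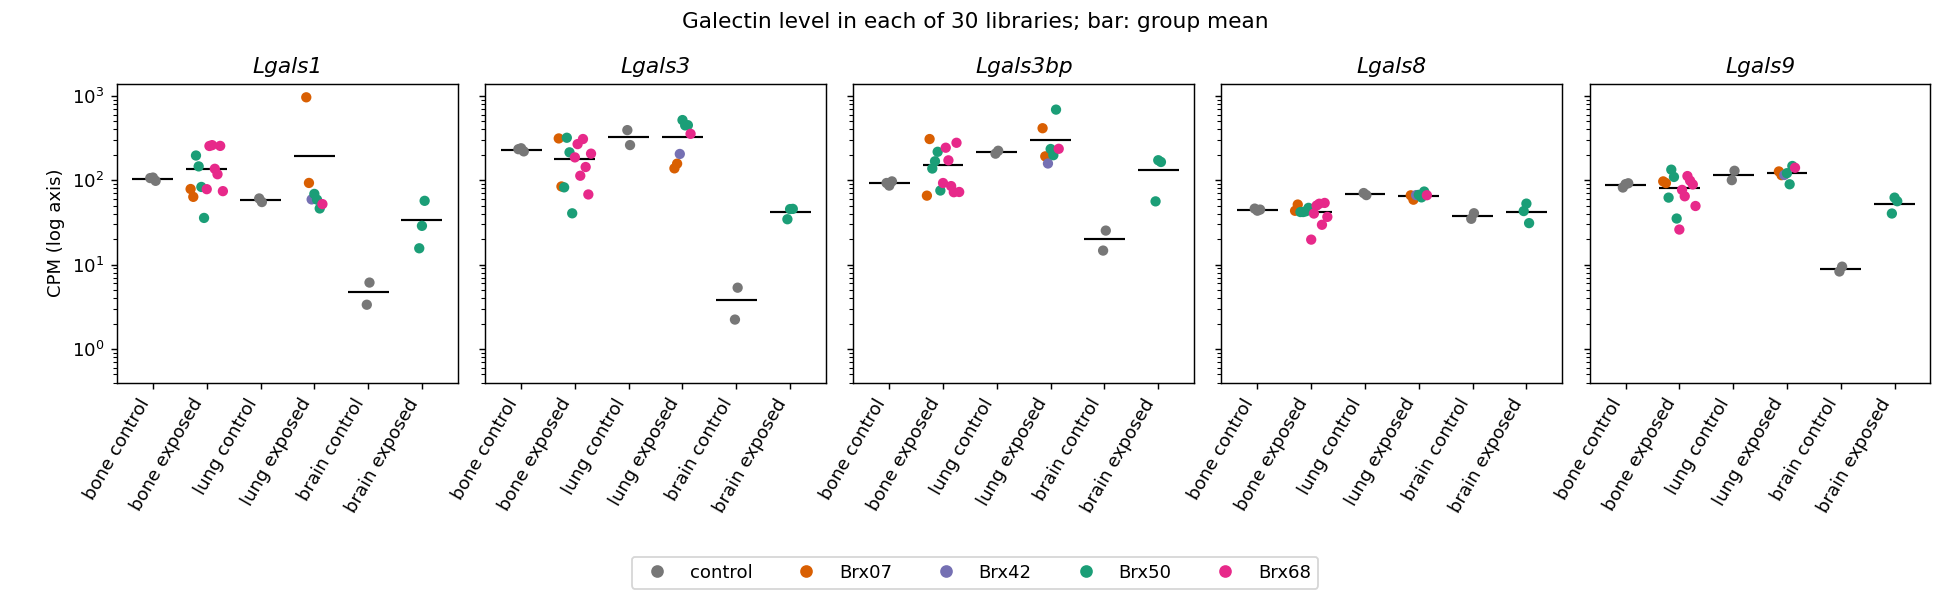
CPM (log axis) of the 5 genes in each of 30 libraries, with 1 point per library coloured by CTC line and a bar at the group mean. Brain controls lie lowest for Lgals1, Lgals3, Lgals3bp and Lgals9 (at most 25.3 CPM), and Lgals8 spans the smallest range (19.8 to 73.5 CPM).

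Over all groups, mean Lgals9 ran from 122 ± 19.0 CPM (SD, n = 7) in exposed lung through 115 ± 20.7 (n = 2) in lung controls, 88.0 ± 5.32 (n = 3) in bone controls, 80.5 ± 31.7 (n = 13) in exposed bone and 53.0 ± 11.3 (n = 3) in exposed brain to 8.88 ± 0.826 (n = 2) in brain controls. Exposed and control libraries overlapped in lung and in bone, and exposed bone spanned all of exposed brain. Exposed brain and brain controls did not overlap. Lgals3 followed nearly that order. Lung controls had 327 ± 93.0 CPM (n = 2) and exposed lung 324 ± 156 (n = 7), followed by 231 ± 9.98 (n = 3) in bone controls, 181 ± 99.8 (n = 13) in exposed bone, 41.9 ± 6.44 (n = 3) in exposed brain and 3.78 ± 2.19 (n = 2) in brain controls. Exposed bone reached down to 40.6 CPM, within the range of exposed brain.

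Lgals1 had its highest means in exposed lung, 191 ± 339.7 CPM (SD, n = 7), and exposed bone, 137 ± 79.8 (n = 13), then 104 ± 4.92 (n = 3) in bone controls, 58.0 ± 4.02 (n = 2) in lung controls, 33.8 ± 21.2 (n = 3) in exposed brain and 4.74 ± 1.97 (n = 2) in brain controls. The first mean rests on 1 library, and the median of exposed lung was 59.3 CPM. Lgals3bp ran from 303 ± 188 CPM (n = 7) in exposed lung through 215 (207 and 223, n = 2) in lung controls, 153 ± 85.4 (n = 13) in exposed bone, 131 ± 65.0 (n = 3) in exposed brain and 92.0 ± 5.30 (n = 3) in bone controls to 20.0 ± 7.53 (n = 2) in brain controls. Its neighbouring groups overlapped at every step except the last. Lgals8 ran only from 68.6 ± 2.71 CPM (n = 2) in lung controls and, beside lung tumours, 65.9 ± 4.48 (n = 7) to 44.9 ± 1.27 (n = 3) in bone controls, 42.5 ± 9.63 (n = 13) in exposed bone, 42.3 ± 10.9 (n = 3) in exposed brain and 37.8 ± 4.04 (n = 2) in brain controls. The lowest lung library lay above the highest bone and brain libraries. The ratio of the highest to the lowest of 30 libraries was 287 for Lgals1, 231 for Lgals3, 46.8 for Lgals3bp, 17.8 for Lgals9 and 3.71 for Lgals8.

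Per length of exons the 5 genes can be set against each other. As a share of their summed CPM per kilobase, Lgals3 made up 38.2% ± 0.738 (SD, n = 3) and Lgals1 35.4% ± 0.871 in bone controls. In lung controls Lgals3 made up 44.9% ± 8.12 (n = 2), Lgals3bp 19.6% ± 3.18 and Lgals1 16.6% ± 0.621. Brain controls had another order, with Lgals8 first at 36.4% ± 5.68 (n = 2), Lgals3bp at 24.1% ± 2.93 and Lgals3 last at 6.79% ± 2.34. The sum was 28.7 ± 7.48 CPM per kilobase in brain controls, 325 ± 7.88 in bone controls and 388 ± 41.4 in lung controls.

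In exposed brain the sum was 142 ± 49.7 CPM per kilobase (SD, n = 3). Lgals3bp was then first at 30.9% ± 7.50 and Lgals8 last at 9.06% ± 4.45, and Lgals3 had 16.8% ± 4.17. In exposed bone Lgals1 (41.0% ± 13.9, n = 13) and Lgals3 (28.3% ± 13.8) led, in the other order than in the controls. In exposed lung Lgals3 (37.5% ± 17.5, n = 7) and Lgals1 (26.2% ± 24.1) led, with Lgals1 at 78.2% in replicate 1.

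**Figure D2:**
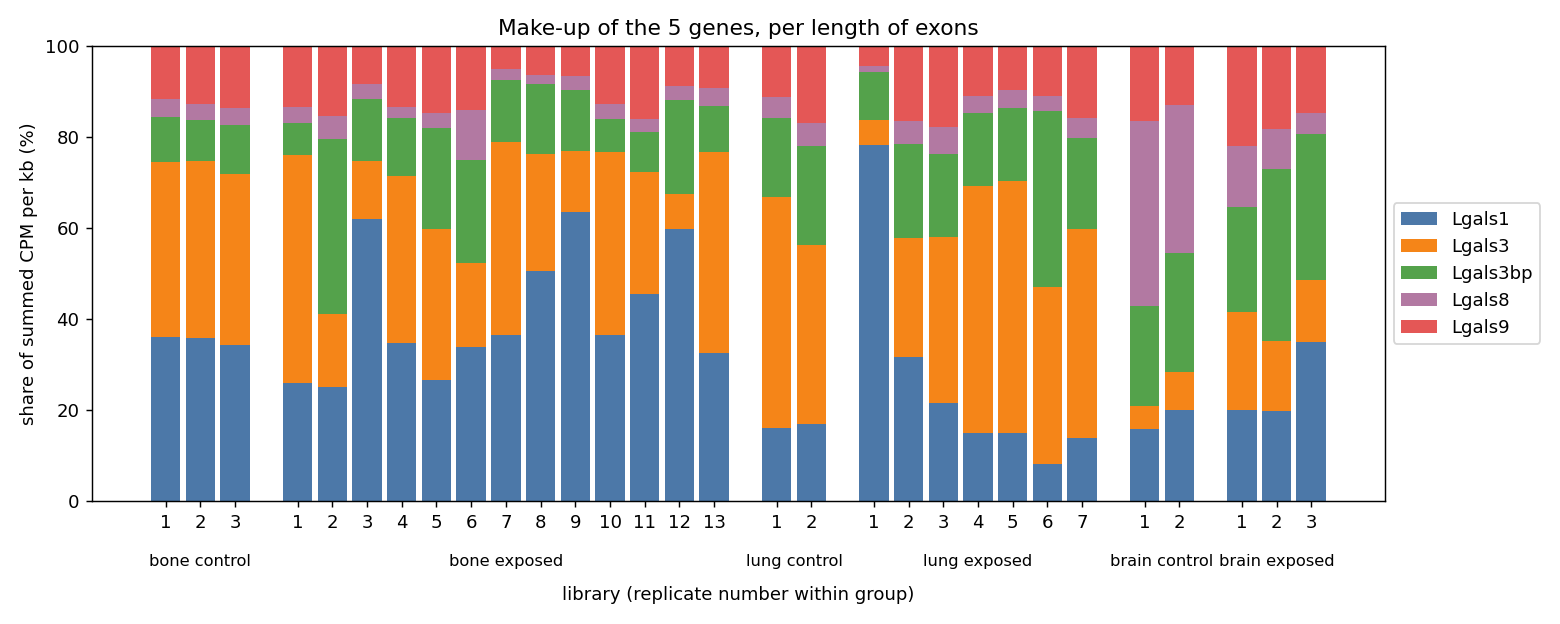
Share (%) of each gene in the summed CPM per kilobase of exons of the 5 genes, with 1 bar per library. Lgals8 takes 36.4% on average in brain controls and 9.06% in exposed brain, and Lgals1 takes 78.2% in lung exposed replicate 1.

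In brain the comparison asked how host cells beside Brx50 tumours differed from those of tumour-free mice. Lgals1 stood at 15.6, 28.8 and 57.0 CPM in exposed replicates 1 to 3 against 3.35 and 6.13 in controls. Lgals3 stood at 34.5, 45.5 and 45.8 CPM against 2.23 and 5.33. Both lay above both controls in 3 of 3 libraries, and Lgals1 spread 3.65-fold among the exposed libraries against 1.33-fold for Lgals3.

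Lgals3bp stood at 56.2, 173 and 165 CPM against 14.7 and 25.3 in controls. Lgals9 stood at 40.3, 62.3 and 56.4 CPM against 8.29 and 9.46. Exposed replicate 1 was the lowest of the 3 for these 4 genes, and it still lay 2.22-fold to 6.47-fold above the higher control. Lgals8, the gene of the damage sensor, stood at 43.1, 52.9 and 31.0 CPM against 34.9 and 40.6. Its groups overlapped.

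Fitted log2 differences in brain were 3.40 (SE 0.45) for Lgals3, 2.78 (SE 0.65) for Lgals1, 2.65 (SE 0.55) for Lgals3bp, 2.52 (SE 0.30) for Lgals9 and 0.11 (SE 0.28) for Lgals8, against a median of 0.03 over all genes. As folds with 95% intervals these were 10.6 (5.01 to 22.3) for Lgals3, 6.86 (2.33 to 20.2) for Lgals1, 6.28 (2.52 to 15.6) for Lgals3bp and 5.73 (3.46 to 9.48) for Lgals9. By p, Lgals9 ranked 5, Lgals3 9, Lgals3bp 148 and Lgals1 270 of 16734 genes.

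With edgeR's quasi-likelihood test, 0 of 5 passed after adjustment over all genes, where 0.00598% of genes (1) passed. The adjusted p was 0.210 for Lgals3 and Lgals9, 0.242 for Lgals3bp, 0.248 for Lgals1 and 0.908 for Lgals8. At an unadjusted p under 0.05 there were 4 of 5, beside 13.6% of all genes, and 4 of 5 had every exposed library above both controls, beside 19.9% of all genes. Because the list was made with this contrast known, nothing is read from these counts. DESeq2 and limma-voom with quality weights each called the same number, 4 of 5, beside 712 and 845 genes in all, and the test without the low count filter called 3 beside 273. Without exposed replicate 1, Lgals9 (adjusted p = 0.0348) and Lgals3bp (0.0466) passed, and with any other library left out 0 of 5 did.

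**Figure D3:**
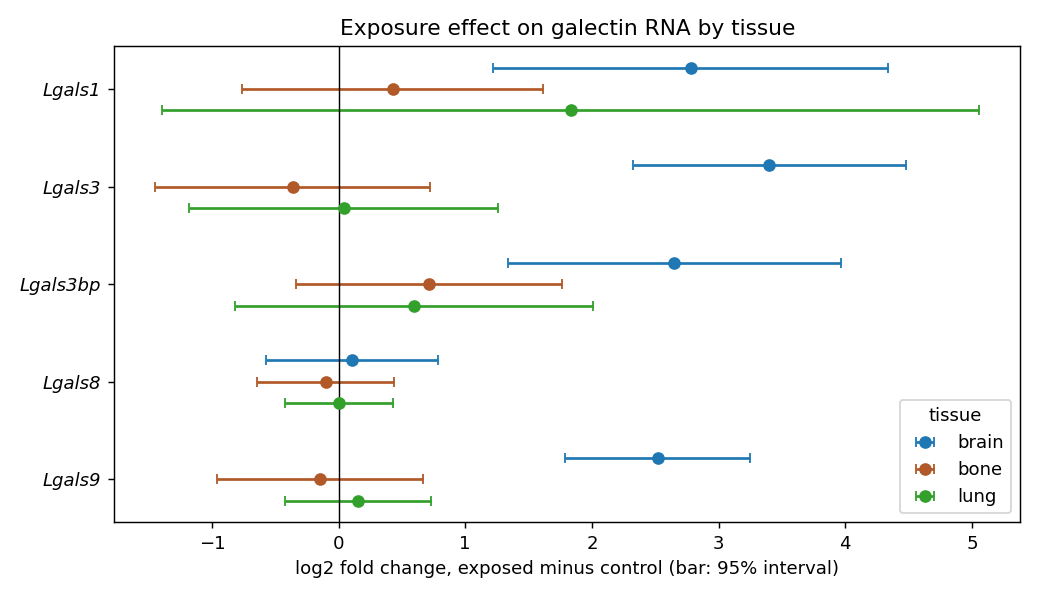
Fitted log2 fold change of each gene, exposed minus control, in brain (3 against 2 libraries), bone (13 against 3) and lung (7 against 2), with 95% intervals. In brain the values of Lgals1, Lgals3, Lgals3bp and Lgals9 lie between 2.52 and 3.40, and those of Lgals8 in the 3 tissues between -0.10 and 0.11.

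Summed markers of cell types were set beside these values in brain, and their order over the exposed libraries was not the same for every list. The 16 monocyte and macrophage markers summed to 3241, 4851 and 2245 CPM in exposed replicates 1 to 3 against 585 and 930.0 in controls, with 15 of 16 fitted higher. The 10 markers of homeostatic microglia summed to 2101, 2693 and 731 CPM against 569 and 731, with 10 of 10 fitted higher and exposed replicate 3 level with a control. Fibroblast markers summed to 491, 1845 and 2326 CPM against 405 and 389, in the same order over the exposed libraries as Lgals1.

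Neutrophil markers summed to 90.7, 4200.3 and 211 CPM against 35.9 and 51.4. Neuron markers summed to 2818, 752 and 2297 CPM against 4265 and 3383, with 11 of 11 fitted lower. Interferon-responsive genes summed to 310.1, 777 and 1040 CPM against 149 and 202. Their lowest exposed value was in replicate 1, which was also lowest for Lgals1, Lgals3, Lgals3bp and Lgals9. From replicate 2 to 3 the interferon-responsive sum rose, as Lgals1 did, while Lgals3bp and Lgals9 were higher in replicate 2. None of the genes on these lists passed over all genes with edgeR. With limma-voom and DESeq2, 13 and 14 (monocyte and macrophage) and 11 and 10 (interferon-responsive) passed. In all, 845 and 712 of 16734 genes passed with these methods. The part of cell make-up in the galectin values was not tested.

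Genes around the galectins in the pathway were taken from 4 lists. Of 18 counter-receptors 17 were tested in brain, and 17 of 17 were fitted higher, with a median log2 difference of 1.39 against 0.03 over all genes. With edgeR 0 passed, while 9 passed with limma-voom and 10 with DESeq2, beside 845 and 712 of 16734 genes in all. The lists were made with earlier results of these data known, so nothing is read from their counts. Itgam, the alpha-M integrin of myeloid cells, had 269.7 ± 141 CPM (SD, n = 3) in exposed libraries and 50.5 ± 12.6 (n = 2) in controls. Itga5, the fibronectin receptor subunit, stood at 34.4 ± 7.64 CPM against 8.54 ± 1.48. Lamp1, a lysosomal membrane glycoprotein, stood at 388 ± 164 CPM against 191 ± 33.3.

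Of 18 enzymes that build or modify glycans 13 were fitted higher and 5 lower, with a median of 0.54 and 0 past the edgeR threshold. With limma-voom 3 passed and with DESeq2 1, beside 845 and 712 of 16734 genes in all. B4galt1, a galactosyltransferase, stood at 66.9 ± 18.2 CPM (n = 3) against 19.6 ± 7.89 (n = 2), and Mgat2, which branches N-glycans, at 29.9 ± 3.63 against 15.6 ± 0.388. Mgat3, which adds the bisecting residue, was the most abundant of the list at 158 ± 23.4 CPM against 199.96 ± 10.8. Of 12 genes of the response to damaged vesicles, the process that galectin-8 serves, 11 were tested, 6 fitted higher and 5 lower with a median of 0.04, and 0 passed. Sqstm1, an autophagy receptor, stood at 240.05 ± 12.1 CPM against 189.9 ± 4.07. Of the 20 interferon-responsive genes 20 were fitted higher with a median of 2.40. Mx1, an antiviral GTPase, stood at 22.7 ± 13.6 CPM against 1.16 ± 0.0587, and Bst2, or tetherin, at 39.6 ± 23.2 against 3.50 ± 0.891.

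In bone the comparison pooled tumours of 3 CTC lines. Lgals1 stood at 35.8, 118 and 261 CPM (lowest, median, highest of 13) against 98.4 to 108 in controls, and Lgals3 at 40.6, 187 and 319 against 220 to 239. Lgals3bp stood at 65.7, 138 and 308 CPM against 86.4 to 96.9, and Lgals9 at 26.0, 89.1 and 133 against 82.0 to 92.1. Lgals8 stood at 19.8, 42.9 and 53.8 CPM against 43.6 to 46.1. The exposed range enclosed the controls for each gene, with 4 to 7 exposed libraries above the highest control and 5 to 9 below the lowest.

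Fitted log2 differences in bone were 0.71 (SE 0.50) for Lgals3bp, 0.43 (SE 0.56) for Lgals1, -0.10 (SE 0.26) for Lgals8, -0.15 (SE 0.39) for Lgals9 and -0.36 (SE 0.51) for Lgals3. With edgeR 0 of 5 passed (adjusted p 0.970 to 0.977), beside 0% of 18278 genes, and 0 of 5 had an unadjusted p under 0.05, beside 2.51%. DESeq2 and limma-voom also called 0 of 5, beside 17 and 2844 genes in all. The 95% intervals still allowed folds of 0.591 to 3.05 for Lgals1, 0.366 to 1.65 for Lgals3, 0.791 to 3.40 for Lgals3bp, 0.641 to 1.35 for Lgals8 and 0.514 to 1.59 for Lgals9. Under upper quartile scaling the median over all genes shifted from 0.08 to 0.20, and Lgals8 then took the other sign (0.01).

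Exposed bone libraries spread more widely than the controls. The coefficient of variation lay between 0.0283 and 0.0604 over the 3 controls and between 0.227 (Lgals8) and 0.582 (Lgals1) over the 13 exposed libraries. Lgals1 was highest in replicates 9, 12, 8 and 3, at 261, 255, 255 and 196 CPM, and the fibroblast markers were highest in the same 4 libraries, at 55694, 44392, 34354 and 74037 CPM summed. It was lowest in replicate 6, at 35.8 CPM, where they stood at 11066. Over the 13 exposed libraries these markers had a median of 13026 CPM and a lowest value of 5036, which lay in another library. Replicate 6 also held the lowest Lgals3 value, 40.6 CPM, while its Lgals8 value, 47.1, lay above the controls.

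Lgals9 was lowest in replicates 7, 6 and 13, at 26.0, 35.2 and 49.5 CPM, and the monocyte and macrophage markers were lowest in the same 3 libraries, at 361, 688 and 424 CPM. It was highest in replicates 4, 10 and 5, at 133, 112 and 109 CPM, where these markers stood at 8639.7, 7923 and 6826. Lgals3 was highest in replicates 4, 1 and 10, at 319, 313 and 308 CPM, and neutrophil markers were highest in the same 3 exposed libraries, at 57293, 48465 and 41365 CPM. Lgals3bp was highest in replicate 2, the skull library, at 308 CPM, where interferon-responsive genes summed to 3738 CPM against at most 2209.8 in the other exposed bone libraries. The list set beside each gene in exposed bone was not fixed beforehand, and how the other lists order these libraries is not described. The part of cell make-up was not tested.

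In bone 17 of 18 counter-receptors were tested, 9 fitted higher and 8 lower with a median of 0.04, and the medians of the glycan enzymes, the damaged vesicle genes and the interferon-responsive genes were -0.05, -0.15 and 0.46, against 0.08 over all genes. With edgeR 0 genes of each list passed. Cd44, the hyaluronan receptor, had 497 ± 265 CPM (SD, n = 13) in exposed libraries and 815 ± 67.4 (n = 3) in controls. Gcnt1, which builds branched O-glycans, stood at 36.8 ± 23.5 CPM against 76.3 ± 4.86.

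In lung, 4 CTC lines were pooled. Lgals3 stood at 138, 355 and 517 CPM (lowest, median, highest of 7) against 261 and 393 in controls, and Lgals9 at 89.6, 121 and 148 against 100.3 and 129. Lgals3bp stood at 158, 235 and 687 CPM against 207 and 223, and Lgals8 at 58.8, 66.4 and 73.5 against 66.7 and 70.5. The exposed range enclosed the controls for each of these genes.

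Lgals1 stood at 46.3, 59.3 and 961 CPM against 55.2 and 60.8. The highest value belonged to replicate 1, beside a Brx07 tumour, and the next highest was 92.9 CPM in replicate 2, also Brx07. In replicate 1 fibroblast markers summed to 46863 CPM against 2186.5 and 2613 in controls, lung epithelium markers to 196 against 2339 and 3040, and endothelial markers to 1543 against 6005 and 7163. The highest Lgals3bp value, 687 CPM, belonged to replicate 6, beside a Brx50 tumour. There interferon-responsive genes summed to 8106 CPM against 1881 and 2183 in controls, and endothelial and fibroblast markers to 222 and 335 CPM, the lowest of all lung libraries. Cldn5, a defining endothelial marker, was at 0 in all 30 libraries, also in the lung controls with 6005 and 7163 CPM of endothelial markers. Its counts therefore do not tell libraries apart. The part of cell make-up in the values of replicates 1 and 6 was not tested.

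Fitted log2 differences in lung were 1.83 (SE 1.44) for Lgals1, 0.60 (SE 0.63) for Lgals3bp, 0.15 (SE 0.26) for Lgals9, 0.04 (SE 0.54) for Lgals3 and 0.00 (SE 0.19) for Lgals8. With edgeR 0 of 5 passed (adjusted p of 1.00 each), beside 0% of 17132 genes, and 0 of 5 had an unadjusted p under 0.05, beside 0.689%. DESeq2 and limma-voom also called 0 of 5, beside 3 genes and 1 gene in all. The Lgals1 value fell to 0.14 without replicate 1, and that of Lgals3bp to 0.18 without replicate 6. For Lgals8 and Lgals9 the 95% intervals of the fold, 0.746 to 1.34 and 0.747 to 1.66, were the narrowest.

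The counter-receptors were fitted 9 higher and 9 lower in lung with a median of 0.02, against 0.08 over all genes, and 0 of 18 passed with edgeR. Havcr2, the galectin-9 receptor Tim-3, had 130.3 ± 56.7 CPM (SD, n = 7) in exposed lung and 237 ± 28.6 (n = 2) in lung controls. It stood at 32.96 ± 6.34 CPM (n = 3) in exposed brain against 12.2 ± 2.66 (n = 2), and at 13.1 ± 6.87 (n = 13) in exposed bone against 10.4 ± 1.35 (n = 3). Havcr2, whose values in brain and bone are given as those of the galectin-9 receptor and were chosen after they were seen, did not pass with edgeR in any of the 3 tissues (adjusted p 0.248 in brain, 0.976 in bone and 1.00 in lung).

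The difference of the exposure effect between tissues was tested in 1 fit of all 30 libraries, which takes them as independent. In the titles 4 pairs or sets of exposed libraries from different tissues share a CTC line and a code, and whether a shared code marks 1 mouse is not stated. Lgals9 differed by 2.60 on the log2 scale (SE 0.61) between brain and bone and by 2.33 (SE 0.65) between brain and lung. Lgals3 differed by 3.71 (SE 0.94) and 3.33 (SE 0.99), and Lgals3bp by 1.89 (SE 0.87) and 2.04 (SE 0.94). Lgals1 differed by 2.31 (SE 1.36) and 0.96 (SE 1.44), and Lgals8 by 0.14 (SE 0.39) and 0.06 (SE 0.42). The Lgals1 value between brain and lung ran from 0.28 without exposed brain replicate 3 to 2.61 without exposed lung replicate 1.

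None of these passed edgeR's quasi-likelihood test over all genes (0 of 5 in each, beside 0% of 21233 genes). The smallest adjusted p was 0.228, for Lgals9 between brain and bone, and 0.935, for Lgals9 between brain and lung. An unadjusted p under 0.05 was reached by 3 of 5 genes in both, beside 8.34% of genes against bone and 3.95% against lung. limma-voom called 3 of 5 in both, beside 1638 genes against bone and 450 against lung, and DESeq2 called 2 of 5 beside 108 genes and 1 of 5 beside 27. With libraries of a shared code as a correlated block, limma-voom again called 3 of 5 in both, beside 1596 and 449 genes. Both contrasts share the brain libraries that were known when the list was made. Between bone and lung 0 of 5 passed (0% of genes; adjusted p of 1.00 each), and 0 of 5 had an unadjusted p under 0.05, beside 1.12%.

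All exposed brain libraries were Brx50, so that line was also taken alone in the other tissues. Against controls the log2 differences beside Brx50 tumours in bone were 0.18 for Lgals1, -0.50 for Lgals3, 0.69 for Lgals3bp, -0.06 for Lgals8 and -0.06 for Lgals9. In lung they were 0.06, 0.60, 0.94, 0.07 and 0.15 in the same order. The corresponding brain values of Lgals3 and Lgals9 were 3.40 and 2.52. With edgeR 0 of 5 passed in bone or lung with Brx50 alone (adjusted p 0.640 to 0.997).

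Among CTC lines, Lgals3 separated Brx50 from Brx07 in lung. It stood at 517, 447 and 449 CPM beside Brx50 tumours, 138 and 157 beside Brx07, 205 beside Brx42 and 355 beside Brx68, with controls at 261 and 393. The Brx50 libraries lay above both controls and the Brx07 libraries below both, but the share of all genes with that pattern was not counted. Between Brx50 and Brx07 the log2 difference was 1.71 (SE 0.38), a fold of 3.26 (95% interval 1.70 to 6.25), and the edgeR adjusted p was 0.691. DESeq2 called Lgals3 (adjusted p = 0.00101) and Lgals1 (0.0237) among 383 genes. The Lgals3 value stayed between 1.66 and 1.76 when each library was left out in turn.

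Lgals1 was lower beside Brx50 (68.9, 58.9 and 46.3 CPM) than beside Brx07 (961 and 92.9), with no overlap and a log2 difference of -3.21 (SE 0.96, edgeR adjusted p = 0.691) that was -0.56 without replicate 1. Of the 5 genes 0 passed with edgeR, beside 0% of 18386 genes, and 2 had an unadjusted p under 0.05, beside 7.03%. No overlap between the lines was also found for 12.2% of all genes in the higher and 15.7% in the lower direction. Lgals3bp, Lgals8 and Lgals9 overlapped between the lines. Macrophage markers stood at 7598, 9638 and 7246 CPM beside Brx50 and 4719.7 and 5609 beside Brx07, and their part in the Lgals3 difference was not tested.

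In bone, Brx68 and Brx50 libraries overlapped for each of the 5 genes. Lgals1 stood at 74.3 to 261 CPM in 7 Brx68 libraries and 35.8 to 196 in 4 Brx50 libraries, with a log2 difference of 0.65 (SE 0.56). The other 4 lay between -0.09 and 0.27. With edgeR 0 of 5 passed (adjusted p 0.968 to 0.996), beside 0% of 19052 genes, and 0 of 5 had an unadjusted p under 0.05, beside 4.83%.

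**Figure D4:**
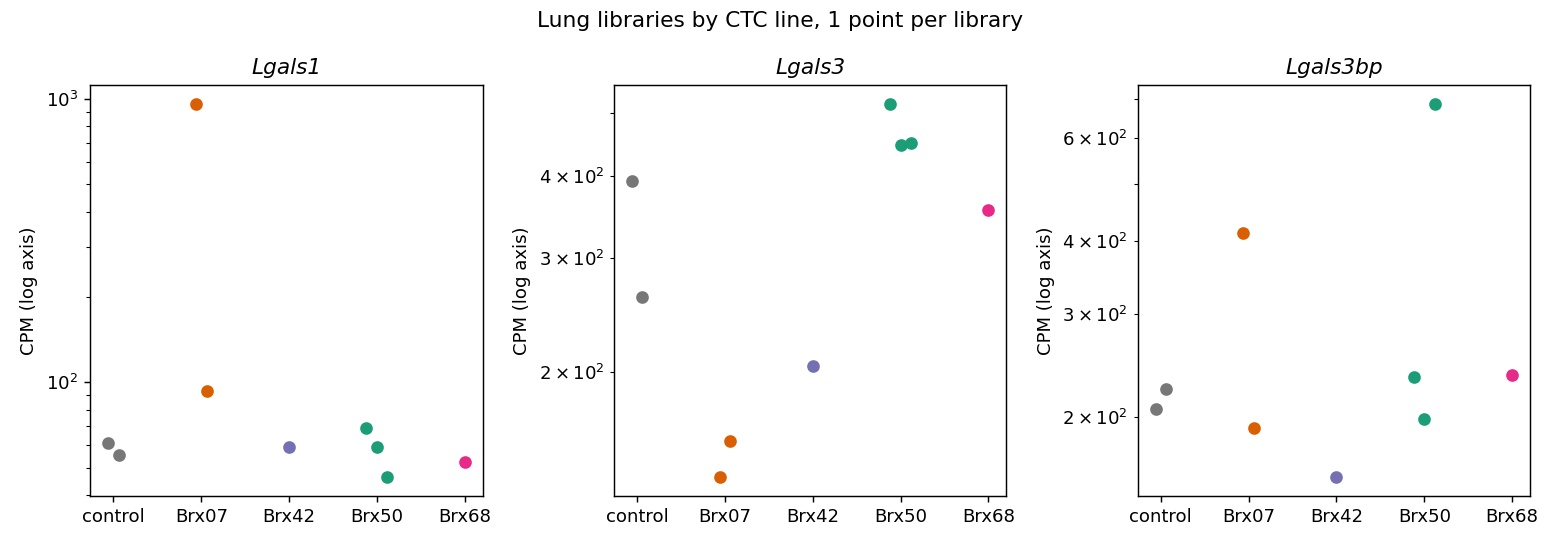
CPM (log axis) of Lgals1, Lgals3 and Lgals3bp in lung libraries by CTC line, with 1 point per library. Lgals3 lies at 447 to 517 CPM beside Brx50 and at 138 and 157 beside Brx07, with controls at 261 and 393.

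The genes whose level most resembled each galectin were ranked by Spearman's rho of log2(CPM + 1) over all 30 libraries, among 10801 genes. These libraries share tissues and cell mixtures, so the values are a description. For Lgals1 they were Ostc (0.92) and Stt3a (0.85), of the oligosaccharyltransferase complex, the calcium-binding protein S100a6 (0.87) and the fibroblast proteoglycan Dcn (0.86). For Lgals3 they were the phosphatase Ptpn1 (0.92), Lrrfip1 (0.91), Cd44 (0.91) and the scaffold Iqgap1 (0.90).

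For Lgals3bp the list held the interferon-responsive Bst2 (0.89) and Ifit3 (0.84), with Phf11d (0.85) and the chemokine Cxcl16 (0.85). For Lgals9 it held Ly6e (0.89), an interferon-responsive surface protein, the proteasome activator Psme1 (0.88), the class I heavy chain H2-D1 (0.87) and Hilpda (0.86). For Lgals8 it held the purinergic receptor P2rx4 (0.88), the costimulatory Cd86 (0.85) and the lectin Clec4n (0.84). Between the galectins themselves rho was highest for Lgals3 with Lgals9 (0.69) and Lgals8 with Lgals9 (0.66), and lowest for Lgals1 with Lgals8 (-0.10).

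Within the 13 exposed bone libraries, where tissue was the same, the 3 leading genes among 10253 were others. They were the lysosomal lipase Lipa (0.93), Dap (0.92) and the disulfide isomerase Pdia3 (0.91) for Lgals1, and Smndc1, Dazap2 and Dstn (0.97 to 0.96) for Lgals3. Lgals9 was closest to Gpr132 (0.97), the leukocyte surface protein Cd52 (0.96) and Napsa (0.96), and Lgals3bp to the lysosomal protease Lgmn (0.91), Abcg1 (0.91) and Ak1 (0.90). Lgals8 was closest to the transcription factor Runx1 (0.88), Pik3r4 (0.87) and Sel1l (0.85). In these libraries rho was 0.59 between Lgals3 and Lgals9 and 0.08 between Lgals1 and Lgals3.

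**Figure D5:**
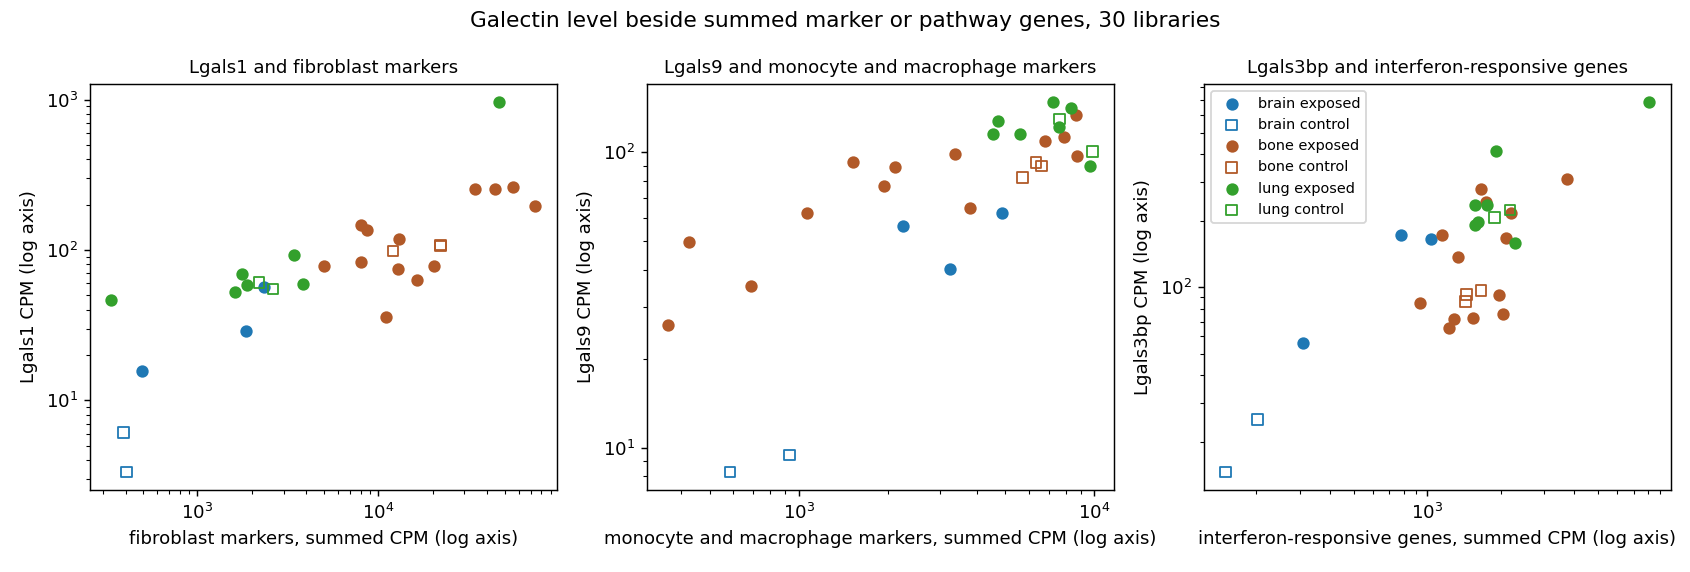
CPM of Lgals1, Lgals9 and Lgals3bp against summed CPM of fibroblast markers, of monocyte and macrophage markers and of interferon-responsive genes (both axes log), with 1 point per library. The highest Lgals1 value (961 CPM, exposed lung) stands at 46863 CPM of fibroblast markers, and the lowest bone value of Lgals9 (26.0 CPM) at 361 CPM of macrophage markers.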

How the data were processed

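RNA sequencing of 30 mouse libraries gave 1 table of raw read counts per gene, as deposited by the authors. STAR 2.5.2b and HTSeq are named, per the submitters' processing notes, with the builds mm10, GRCm38.p5, hg19 and GRCh37, whose roles are not stated. How human reads were separated, the strand setting and the annotation were not given in the sources used here. Of 43346 gene IDs, 884 had no symbol and held 0.132% of the counts. Libraries of a group differed by more than sampling noise (chi-square per degree of freedom of at least 9.64 over 107 pairs).

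CPM are counts over the library total, scaled to 1000000. CPM per kilobase divides them by the length of merged GENCODE M21 exons. The tests used edgeR 4.0.16 under R 4.3.3 (TMM scaling, the default low count filter filterByExpr, robust quasi-likelihood F-test, Benjamini-Hochberg adjustment over all genes tested, adjusted p under 0.05, no fold limit) in 11 comparisons. Each tissue was fitted alone for exposure, the tumour-free controls together, and all 30 libraries for differences between tissues. All 5 listed genes passed the filter in every fit. Fits were tested on simulated data.

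Alternatives were scaling by RLE or by the upper quartile, omission of the low count filter, limma 3.58.1 voom with quality weights, DESeq2 1.42.0, leaving out each library, means of CTC line means, all 30 libraries in the fit and a replicate block. Fits of Brx50 or Brx68 libraries alone, and limma-voom with libraries that share a CTC line and a title code (11 libraries, 5 codes) as a correlated block, were added after seeing the data. Replicate numbers of controls come from their titles (the table's headers number the brain controls 2 and 3), and the labels do not say that they pair libraries. Deviations of same-numbered controls from their group means had r of -0.0647 to 0.0333. With 2 or 3 controls per tissue, such values cannot decide whether the numbers pair libraries.

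The 5 genes and all gene lists were chosen with earlier results of these data known. Named from a list are its 2 genes of smallest p and its most abundant gene. Similar genes were the first 4 by Spearman's rho over 30 libraries and the first 3 over exposed bone, among genes with a mean of at least 10 CPM. One similar gene is not reported here.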

Additional observations from a re-analysis of the deposited data

Results flagged for a closer look

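In exposed lung, Lgals1 stood at 961 CPM in replicate 1 (Brx07), and the gap to the next library took 0.949 of the range of 7 libraries, above Dixon's limit of 0.568. In exposed bone, Lgals8 stood at 47.1 CPM in replicate 6 (Brx50), with a gap share of 0.831 in the 4 Brx50 libraries against a limit of 0.829. Chance gives such a gap in about 1 in 20 sets of independent, normally spread values. Here 2 of 15 combinations of a library group and a gene showed one, and these combinations share libraries. In lung, each Brx50 library lay above the control mean of Lgals3 and each Brx07 library below it, with a difference of log2 ratios of 1.67. The share of all genes with that pattern was not counted. The direct test of Brx50 against Brx07 in edgeR's quasi-likelihood fit gave an adjusted p of 0.691.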

How the results depend on the processing

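Of 1150 values of the 5 genes under other settings, 1044 kept their direction and side of the threshold, 60 changed sign, 37 passed only under the other setting and 9 no longer passed. In the counts below, galectins stands for these 5 genes, Lgals3bp included. In brain, 3 galectins (273 genes) passed without the low count filter, 4 (845) with limma-voom and 4 (712) with DESeq2. With limma-voom and DESeq2, 2844 and 17 genes passed in bone, 1 and 3 in lung, and 317 and 10 for the difference of bone and lung. For brain minus lung they called 3 galectins (450 genes) and 1 (27), and for brain minus bone 3 (1638) and 2 (108). With shared title codes as a block (correlation 0.0269), limma-voom called 3 (449), 3 (1596) and, for bone minus lung, 0 (352), and Lgals8 was -0.072, -0.0736 and 0.0019 and Lgals1 0.0032 for bone minus lung. DESeq2 called 44 genes between bone lines, and 2 galectins and 383 genes between lung lines. With all 30 libraries in the fit, tumour-free tissues gave 0 galectins and 93 genes (bone, lung), 6187 genes (bone, brain) and 5165 (lung, brain). The cause was not tested. With the replicate block 4, 5 and 5 galectins and 7377, 13524 and 13197 genes passed, against 8456, 14303 and 13577 without it, and it changed no call of a galectin.

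Leaving out 1 library gave 0 to 2 galectins and 0 to 69 genes in brain, 0 to 2 genes in bone, 0 to 22 for brain minus bone, 0 to 1 for brain minus lung, and in tumour-free tissue 3 to 5 galectins and 6477 to 8506 genes (bone, lung), 4 to 5 and 12678 to 14405 (bone, brain) and 5 and 12032 to 13777 (lung, brain). Signs of values near 0 changed. Lgals8 was -0.15 in brain, -0.069 for brain minus lung and -0.072 for brain minus bone with limma-voom, 0.0063 in bone with upper quartile scaling, and in lung -0.0022 with that scaling, -0.027 without the filter, -0.076 with limma-voom and -0.025 for line means. Lgals3 in lung was -0.27 for line means. For bone minus lung, Lgals1 was 0.0052 with limma-voom, and Lgals8 0.0034 with it and 0.00077 with upper quartile scaling. Between bone lines Lgals3bp was -0.15 with limma-voom and Lgals8 -0.0539 with RLE scaling, -0.094 with upper quartile scaling and -0.0538 with DESeq2. Between lung lines Lgals3bp was -0.39 and Lgals9 -0.29 with limma-voom. Without 1 library, bone lines ran from -0.13 to 0.79 (Lgals3), -0.21 to 0.30 (Lgals3bp), -0.087 to 0.16 (Lgals8) and -0.42 to 0.20 (Lgals9), and lung lines from -0.53 to 1.14 (Lgals3bp), -0.032 to 0.34 (Lgals8) and -0.22 to 0.21 (Lgals9). Lung ran from -0.25 to 0.38 (Lgals3), -0.070 to 0.050 (Lgals8) and -0.013 to 0.32 (Lgals9), and the difference of bone and lung from -1.53 to 0.29 (Lgals1). Lgals8 ran from -0.052 to 0.25 in brain, -0.080 to 0.29 for brain minus bone and -0.091 to 0.21 for brain minus lung. The number of libraries, 2 controls in lung and brain, limits the precision, and the smallest galectin count of 14 limits Lgals3 in brain controls.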

Other observations

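Outside the 5 listed genes, Lgals7, the galectin of keratinocytes and other stratified epithelia, was high in a few libraries. It stood at 268, 432 and 381 CPM in exposed bone replicates 7, 8 and 13, all beside Brx68 tumours, against 14.0 to 32.7 in bone controls and at most 31.6 in the other exposed bone libraries. Summed keratinocyte and gland markers were also highest in these 3 libraries, at 3687, 5954 and 7678 CPM against 521 to 1096 in controls. In lung it stood at 82.8 CPM in exposed replicate 1 and at most 8.53 in the other libraries. In exposed brain it had 0 counts in each library. Lgals7 did not pass edgeR's quasi-likelihood test in bone or lung (adjusted p = 0.970 and 1.00).

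Lgalsl, a galectin-like gene, had its highest control level in brain, at 68.3 and 57.7 CPM against 23.1 to 28.0 in controls of bone and lung. In exposed brain it stood at 55.0, 33.8 and 37.4 CPM, with a log2 difference of -0.63 (SE 0.30, edgeR adjusted p = 0.422). Lgals4, a galectin of gut epithelium, stayed between 1.59 and 28.3 CPM in all 30 libraries.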
